A study of Mus musculus with 2 samples.

Results

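The genes described here are the 161 abundant lincRNA genes of the mouse hippocampus, out of 55536 annotated genes. A lincRNA is a long intergenic non-coding RNA, a transcript made outside protein-coding genes and with no known protein product. The genes were selected on their own level. Each had at least 1 transcript of the biotype lincRNA and a mean of at least 3 TPM over the 2 deposited gene tables. TPM states a gene's share of all transcripts in a library, corrected for length. The annotation held 6058 genes with such a transcript, and 170 of them reached the minimum. Of the 13 long non-coding RNA symbols left out by name, among them Malat1, Meg3, Miat and Rmst, 9 were among these 170. Because the level chose the members, levels are given as a description with no test.

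Total RNA was sequenced from 2 samples of hippocampus (the labels call the tissue a hippocampal layer) taken from B6CASTF1/J males at 25 days of age. B6CASTF1/J is an F1 hybrid strain, and no treatment or altered allele is named. There was 1 group, so no condition was compared and nothing was tested. The labels name 2 biological replicates with separate tissue identifiers but the same donor identifier, so the spread between them may be technical. The RNA input was 300 ng a library. Annotated genes held 35713440 expected counts in replicate 2, against 30635852 expected counts in replicate 1, where an expected count is an estimate that shares out reads matching several genes. The neuronal marker Snap25 averaged 831 TPM, the dentate granule cell marker Prox1 47.1 TPM and the CA1 marker Wfs1 77.0 TPM, while Chat, which marks cholinergic neurons, averaged 0.0100 TPM and Slc6a4, which marks serotonergic neurons, was listed at 0 in both libraries. Of the 3 choroid plexus markers, Ttr averaged 54.5 TPM, Kl 3.78 TPM and Folr1 0.790 TPM, and the globin gene Hbb-bs, which marks red blood cells, had 347 TPM in replicate 2 and 252 TPM in replicate 1.

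Long non-coding RNAs act in several ways that do not need a protein. Some carry many binding sites and hold proteins or microRNAs (miRNAs), which are short RNAs that pair through their seed with messenger RNAs and lower them. Others serve as host transcripts from which miRNAs, small nucleolar RNAs (snoRNAs) or small Cajal body RNAs (scaRNAs) are cut. Hosts of miRNAs are cut mostly in the nucleus, while the spliced exons of many snoRNA hosts are exported and degraded during translation. Well known examples include Norad, which binds Pumilio proteins, and Cyrano, which directs the decay of miR-7. Further ones are the dendritic RNA Bc1 and the precursor of the circular RNA Cdr1as, which binds miR-7. The circular form of Cdr1as was not measured separately here.

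Sequences of these members are shown first, since what is known of them rests on short repeated matches. C230004F18Rik (RefSeq symbol Cdr1os, chrX:61116378-61292484, plus strand, mm10) had 88.2% of its TPM on 1 transcript model of 3354 bases and 7 exons, C230004F18Rik-206. That model held 123 matches to GTCTTCC, which pairs with bases 2 to 8 of miR-7, and all 123 lay in its sixth exon of 2927 bases. It held 140 matches to the shorter TCTTCC, which is part of GTCTTCC, 139 of them in that exon. The search covered the transcript strand only, in transcript sequences of GENCODE M21. The stretch of 180 bases below, from that exon at chrX:61183261-61183440, is the densest found and has 10 matches to TCTTCC, in capitals. The mature miR-7a and miR-7b sequences from RefSeq (GRCm38) follow, with the seed, bases 2 to 8, in capitals.
C230004F18Rik-206: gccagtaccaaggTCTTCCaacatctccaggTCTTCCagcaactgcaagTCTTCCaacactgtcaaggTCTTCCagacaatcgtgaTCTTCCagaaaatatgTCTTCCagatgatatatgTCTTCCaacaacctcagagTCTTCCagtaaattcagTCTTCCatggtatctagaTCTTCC
mmu-miR-7a-5p: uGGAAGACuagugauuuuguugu
mmu-miR-7b-5p: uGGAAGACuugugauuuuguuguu

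Such density was rare in the annotation. Among 56573 windows of 180 bases laid end to end over all 9101 lincRNA transcripts, 9.15% held at least 1 TCTTCC and 0.0177% held 10. These windows included the transcripts of C230004F18Rik itself, so the 0.0177% may consist of its own windows. The stretch shown was also picked as the densest, while the windows were not picked. Over all 9101 lincRNA transcripts TCTTCC occurred 0.592 times per kilobase, against 41.7 times in C230004F18Rik-206. Among the leading transcripts of the 161 members, 81 (50.3%) held TCTTCC at least once, with a median of 1 match. Of all 9101 lincRNA transcripts, 42.0% held it at least once, so a single match was common in both sets. The next highest count, 11, was in 1700020I14Rik-202, the leading transcript of Cyrano (RefSeq symbol Oip5os1), which is 8300 bases long. A match is a description of letters and not of a bound site.

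Cyrano (1700020I14Rik, chr2:119594297-119607502, plus strand) carries the site for which it is known. Only 2 of its matches were to the full GTCTTCC. At the one that begins at base 2952 of the transcript, a run of 13 further bases paired with the 3′ part of miR-7a. The site is shown with both paired runs in capitals (chr2:119602136-119602162, plus strand).
1700020I14Rik-202: aACAACAAAATCACcaatGTCTTCCat

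2900097C17Rik (RefSeq symbol Norad, chr2:156388065-156392979, minus strand) held the most Pumilio elements of all leading transcripts. The element searched was TGTANATA on the transcript strand, and 2900097C17Rik-202 had 11 in 4915 bases. That is 2.24 per kilobase, against 0.113 per kilobase over all lincRNA transcripts, 11.2% of which held at least 1. Of the members' leading transcripts, 32 held at least 1. The stretch below lies at chr2:156391349-156391528 and has 2 of the 11, in capitals. It was picked as the densest. Of the windows of this length laid end to end over lincRNA transcripts, Norad's own among them, 0.0990% held at least 2.
2900097C17Rik-202: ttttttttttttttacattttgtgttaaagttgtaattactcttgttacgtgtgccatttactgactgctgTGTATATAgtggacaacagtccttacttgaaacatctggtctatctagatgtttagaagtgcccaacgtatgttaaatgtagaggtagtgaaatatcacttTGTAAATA

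Bc1 (chr7:144914470-144914637, plus strand) is the shortest of the well known members. Its single transcript of 168 bases, a product of RNA polymerase III, has a stretch of A bases at its centre and no intron. The whole model is shown because so short a gene was counted by one of the deposited tables and not by the other.
Bc1-201: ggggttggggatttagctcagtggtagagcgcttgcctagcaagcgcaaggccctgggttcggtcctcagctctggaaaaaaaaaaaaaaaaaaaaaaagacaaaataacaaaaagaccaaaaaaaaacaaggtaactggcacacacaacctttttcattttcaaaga

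**Figure D1:**
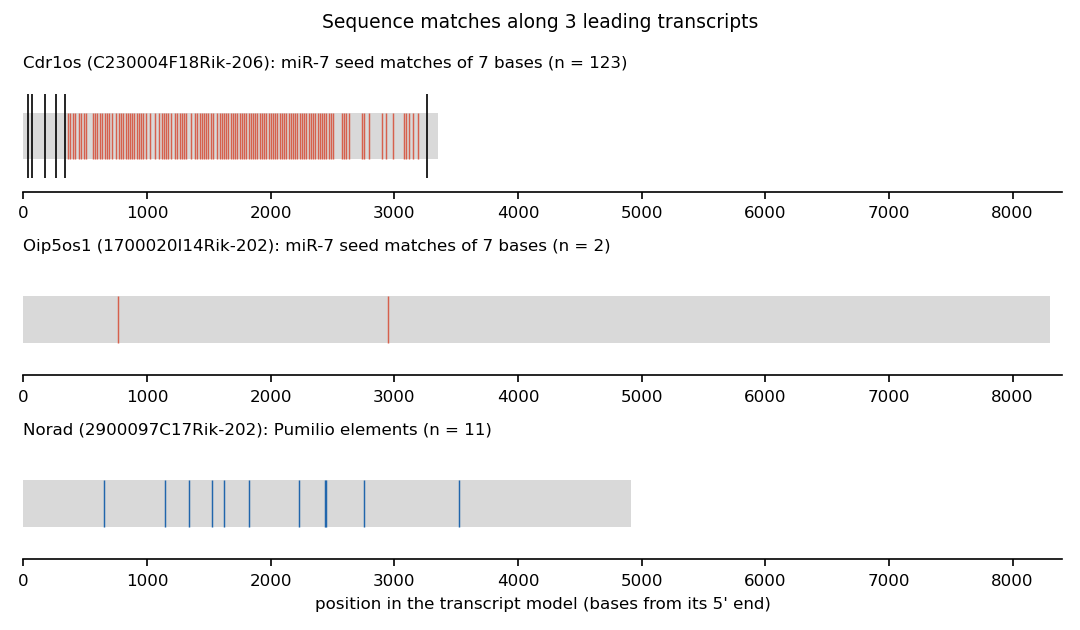
Position of sequence matches along 3 leading transcripts, in bases from the 5′ end, with each match as a coloured line and exon borders of Cdr1os as black lines. The 123 matches to the miR-7 seed fill the sixth exon of Cdr1os, while Oip5os1 has 2 and Norad has 11 Pumilio elements.

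The miRNA hosts carry seeds that recur between members. RefSeq hairpins (GRCm38) lay inside 22 members on the same strand, and they gave 63 mature sequences with 52 different seeds. Among these matched sequences, a seed was held by more than 1 host in 6 cases. The hosted miR-124, miR-15a, let-7a-5p and the product of Mir125b-2 are not in these counts and are named only. A selection of the mature sequences follows, from hosts described further on, with the seed in capitals and members of a shared seed next to each other.
mmu-miR-9-5p: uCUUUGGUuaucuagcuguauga
mmu-let-7c-5p: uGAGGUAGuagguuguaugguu
mmu-let-7b-5p: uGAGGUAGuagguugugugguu
mmu-miR-100-5p: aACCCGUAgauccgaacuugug
mmu-miR-99a-5p: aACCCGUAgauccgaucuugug
mmu-miR-125b-5p: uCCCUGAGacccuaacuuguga
mmu-miR-29b-3p: uAGCACCAuuugaaaucaguguu
mmu-miR-29c-3p: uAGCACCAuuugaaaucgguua
mmu-miR-16-5p: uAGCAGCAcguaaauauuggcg
mmu-miR-137-3p: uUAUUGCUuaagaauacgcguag
mmu-miR-138-5p: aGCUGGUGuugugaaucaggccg
mmu-miR-181a-5p: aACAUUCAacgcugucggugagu
mmu-miR-181b-5p: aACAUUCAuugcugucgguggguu
mmu-miR-101a-3p: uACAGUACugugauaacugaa

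The miR-9-5p seed, which marks a miRNA of neural progenitors and neurons, was held by 3 members, Gm3764, C130071C03Rik and Mir9-3hg, each with 1 hairpin of the family. The seed of miR-100 and miR-99a was held by 3110039I08Rik (RefSeq symbol Mir100hg) and Mir99ahg, and that of let-7b and let-7c by Lncppara and Mir99ahg. 3110039I08Rik also holds a let-7a gene, Mirlet7a-2, and both Mir124a-1hg and Mir124-2hg hold a gene of miR-124. A330023F24Rik held both miR-29b and miR-29c, which share a seed within 1 host. In Gm4258, miR-181a and miR-181b did the same.

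Most members were low and a few were very high. The median of the mean levels was 7.06 TPM, with quartiles of 4.64 and 13.6 TPM. Of the 161 members, 105 lay below 10 TPM, 56 at or above it, 11 at or above 50 TPM and 2 above 1000 TPM. The single replicates reached 3 TPM for 150 members in replicate 2 and for 160 in replicate 1. The median coefficient of variation between the replicates was 8.35%. In bulk tissue, fewer cells of a type and less RNA per cell cannot be told apart.

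The minimum fell inside a dense part of the range. The 5 members just inside it were 1700012D14Rik at 3.01 TPM, Gm4258 at 3.07 TPM, Gm32618 at 3.08 TPM, 1700086O06Rik at 3.09 TPM and Gm49768 at 3.10 TPM. Just outside it were Gm9801 at 2.99 TPM, Gm12525 at 2.98 TPM, Gm41414 at 2.96 TPM, and 6720427I07Rik and 2610037D02Rik at 2.94 TPM each. The gap between the sides was smaller than the spread between the replicates of these genes. Gm49768, for example, had 1.92 TPM in replicate 2 and 4.27 TPM in replicate 1.

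**Figure D2:**
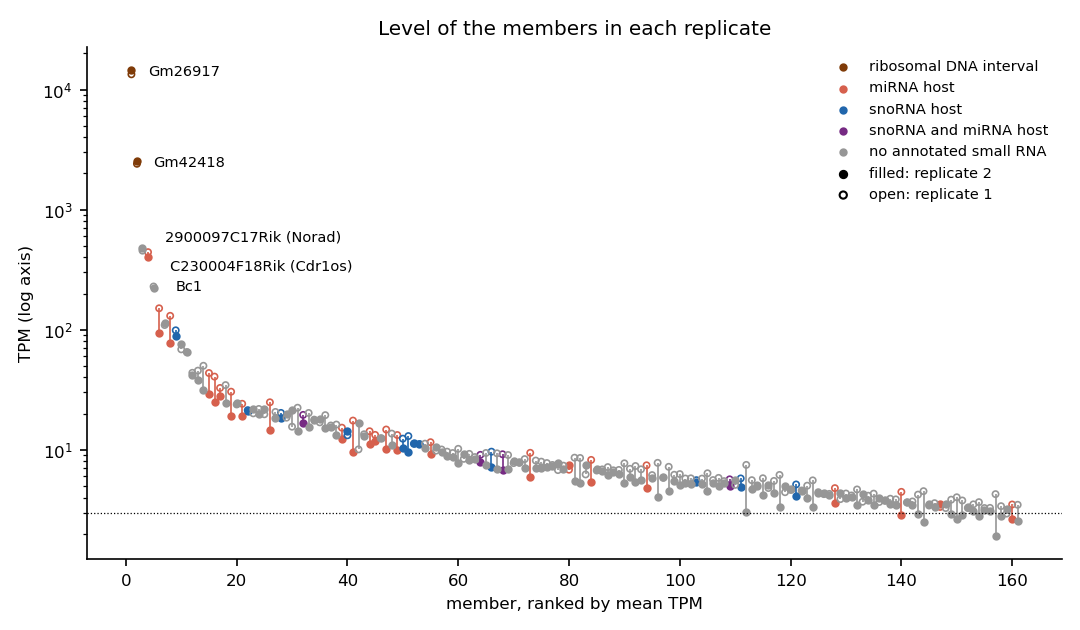
TPM of each member in both replicates on a log axis, by rank of the mean, with filled points for replicate 2, open points for replicate 1 and colours for the small RNA genes a member holds. The dotted line is the minimum of 3 TPM; Gm26917 and Gm42418 stand above 1000 TPM and 105 members lie below 10 TPM.

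The highest level belonged to Gm26917 (chr17:39843013-39846341, plus strand), with 14472 TPM in replicate 2 and 13392 TPM in replicate 1 (mean 13932 ± 764, SD, n = 2). Beside it, Gm42418 (chr17:39846958-39848788, plus strand) had 2529 TPM in replicate 2 and 2408 TPM in replicate 1 (mean 2468 ± 85.2, SD, n = 2). RefSeq lists Gm42418 as Rn18s-rs5, a pseudogene of 18S ribosomal RNA, and the interval is known to carry ribosomal RNA sequence, so these values cannot be told apart from ribosomal RNA reads. Both genes together took 2.83% ± 0.146 of all expected counts. All members took 3.33% ± 0.117, and without this pair they took 0.497% ± 0.0289 (SD, n = 2 each).

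Below that pair, several of the highest levels belonged to RNAs whose sequences are shown above. Bulk tissue does not give the cell type they came from. 2900097C17Rik (Norad), which keeps Pumilio proteins from their messenger RNA targets, had 480 TPM in replicate 2 and 455 TPM in replicate 1 (mean 468 ± 17.8). C230004F18Rik (Cdr1os), whose model spans the Cdr1as exon, had 399.8 TPM in replicate 2 and 442 TPM in replicate 1 (mean 421 ± 30.2). This level may include reads of the circular RNA, which cannot be told apart here from those of the linear transcript. The replicates of Norad and Cdr1os did not overlap, but the gap was small beside their spread. Bc1, which represses translation in dendrites, followed with 222 TPM in replicate 2 and 229 TPM in replicate 1 (mean 225 ± 5.24). This level rested on only 374 expected counts in replicate 2 and 329 in replicate 1, over a model of 168 bases. The deposited kallisto tables listed Bc1 at 0 in both replicates. Cyrano, with a lower TPM, had 18850 and 15677 expected counts in the same order. Cyrano had 113 TPM in replicate 2 and 109 TPM in replicate 1 (mean 111 ± 2.52).

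On the strand opposite the sixth exon of Cdr1os the annotation places the gene Cdr1. Cdr1 was listed at 0 expected counts in both replicates, while Cdr1os had 30989 in replicate 2 and 30303 in replicate 1. A count of 0 allows up to 3 counts, a limit of 0.0840 CPM for replicate 2 and 0.0979 CPM for replicate 1 (CPM is the count scaled to the library total) that covers counting error only. The sources used here do not say whether counting used the strand. Another 20 members overlap a coding gene on the opposite strand, among them Gas5, Dleu2, Snhg6 and A330023F24Rik. Reads of these pairs may not be told apart. The deposited posterior SD of the count, a measure of doubt from reads matching several genes, was 0 for Cdr1os, Gas5, Snhg6 and A330023F24Rik. For Dleu2 it was 0.0628% of the count, and the part of the strand in these values was not tested.

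The host of a miR-9 gene, Gm3764, had 93.6 TPM in replicate 2 and 151 TPM in replicate 1 (mean 122 ± 40.4). Mir124a-1hg, which holds a gene of miR-124, the most neuron-specific of the abundant miRNAs, had 77.9 TPM in replicate 2 and 130.4 TPM in replicate 1 (mean 104 ± 37.2). For both hosts the replicates lay further apart than for Norad, Bc1 or Cyrano. Gas5, a host of C/D box snoRNAs whose transcript also binds the glucocorticoid receptor, had 89.0 TPM in replicate 2 and 98.8 TPM in replicate 1 (mean 93.9 ± 6.95).

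The rest of the 20 highest members were mostly uncharacterised. Gm7292 had 75.4 TPM in replicate 2 and 68.6 TPM in replicate 1, and Gm48623 had 65.7 and 65.1 TPM in the same order. 1500004A13Rik averaged 43.0 ± 1.03 TPM, Gm10419 41.7 ± 5.49 TPM, AI480526 29.6 ± 7.04 TPM and Tmem250-ps 24.2 ± 0.544 TPM (SD, n = 2 each). RefSeq lists Tmem250-ps as protein-coding. Lncpint, a transcript induced by p53, had 31.3 TPM in replicate 2 and 50.1 TPM in replicate 1, and its replicates lay far apart. Gm27000, which holds the miRNA gene Mir1906-2, had 24.9 TPM in replicate 2 and 40.7 TPM in replicate 1.

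The role list of 74 names, drawn up with earlier results of these data known, had 25 members. Beside those above, it held 2 genes of the X-inactivation centre. Ftx, which also holds Mir421 and Mir374b, had 10.2 TPM in replicate 2 and 14.7 TPM in replicate 1. Jpx, an activator of Xist in mouse cells, had 5.31 TPM in replicate 2 and 7.71 TPM in replicate 1. Pvt1, the neighbour of Myc, averaged 13.3 ± 0.262 TPM (SD, n = 2), with replicates that nearly coincided. Chosen after its values were seen, 1810026B05Rik (RefSeq symbol Chaserr), which overlaps Chd2 on the same strand in the annotation and is known to restrain it, averaged 14.7 ± 2.10 TPM.

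Small RNA genes lay inside 40 of the 161 members (24.8%), on the same strand. For comparison, they lay inside 76 of the 5887 lincRNA genes below the minimum (1.29%). A miRNA gene was annotated in 28 members, a snoRNA or scaRNA gene in 16, and both in 4. These shares were not tested. The 24 members with only miRNA genes had a median level of 12.6 TPM. Cdr1os counts among them through a predicted miRNA gene, Gm24396. The median was 11.2 TPM for the 16 snoRNA or scaRNA hosts and 6.38 TPM for the 121 members with neither.

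Among the miRNA hosts, C130071C03Rik, which holds the second miR-9 gene, had 27.9 TPM in replicate 2 and 32.7 TPM in replicate 1. Mir9-3hg, with the third, had 19.2 TPM in replicate 2 and 24.2 TPM in replicate 1. All 3 loci of the family were thus above the minimum in both replicates, with Gm3764 the highest in each. Mir124-2hg, a second host of miR-124, had 11.9 TPM in replicate 2 and 13.3 TPM in replicate 1, well below Mir124a-1hg.

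Genes of the let-7, miR-100 and miR-125b families were spread over 3 hosts. 3110039I08Rik (Mir100hg), known as the host of a cluster of these miRNAs, had 29.1 TPM in replicate 2 and 43.5 TPM in replicate 1. Its relative Mir99ahg had 9.67 TPM in replicate 2 and 17.5 TPM in replicate 1. Lncppara, with let-7b and a let-7c gene, averaged 12.7 ± 2.21 TPM (SD, n = 2). In all 3 the value of replicate 2 was the lower one.

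Further hosts included A330023F24Rik, which holds miR-29b and miR-29c, miRNAs of mature neurons, with 19.2 TPM in replicate 2 and 30.5 TPM in replicate 1. Gm26871, with the neurodevelopmental miR-137, had 14.7 TPM in replicate 2 and 24.9 TPM in replicate 1. The remaining hosts lay lower. Dleu2, host of miR-15a and miR-16, averaged 10.4 ± 1.61 TPM, and C78859, with the hairpin of the dendritic miR-138, had 5.95 TPM in replicate 2 and 9.43 TPM in replicate 1. Mir670hg, with miR-129 and miR-670, averaged 4.19 ± 0.849 TPM and E130102H24Rik, with miR-101a, had 2.87 TPM in replicate 2 and 4.46 TPM in replicate 1.

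Hosts of snoRNAs, which guide chemical changes in ribosomal RNA, and of scaRNAs, which guide those of spliceosomal RNA, were lower than Gas5. Snhg12 had 21.2 TPM in replicate 2 and 21.4 TPM in replicate 1, Snhg8 18.2 and 20.3 TPM, and Snhg20 16.9 and 19.5 TPM, in the same order. Snhg6 averaged 13.8 ± 0.820 TPM, Snhg1 11.3 ± 2.44 TPM and Snhg5 11.3 ± 0.0778 TPM (SD, n = 2 each). The replicates of most of these hosts lay close together. Epb41l4aos averaged 5.47 TPM, Snhg10 5.35 TPM, Snhg17 5.33 TPM and Dancr 4.64 TPM. Of the remaining hosts, 1110038B12Rik averaged 11.4 TPM and AA465934 11.2 TPM.

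Few of the small RNAs themselves were counted. Of 95 small RNA genes inside members, 77 were at most 110 bases long, 15 had any expected count, and 3 had at least 100 in both replicates. Scarna13, inside Snhg10, had 882 expected counts in replicate 2 and 836 in replicate 1, while Snhg10 itself averaged 49.5. Snora74a, inside AC121821.1, had 1385 expected counts in replicate 2 and 1032 in replicate 1. The scaRNA gene Gm26083, inside Snhg20, had 144 and 114 in the same order. In the kallisto tables all 95 were listed at 0.

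The ratio between the replicates had a lower median for miRNA hosts than for other members, a difference that is described here and not tested. For this ratio, expected counts were scaled by TMM factors, which align the bulk of genes, and the log2 ratio of replicate 2 over replicate 1 was taken for the 126 members that averaged at least 100 expected counts. None of the 126 was over 2-fold higher, against 0.134% of all 12719 genes with such counts, and none was over 2-fold lower, against 0.645% of them. The members' median was -0.14, with 85 of 126 (67.5%) lower in replicate 2. Over all 12719 genes the median was 0.04, with 39.3% lower. Scaling to the spike-ins moved that median to -0.17 and gave 123 of 126 members lower, beside 11510 of the 12719 genes. A change of scaling shifts every gene nearly alike. The distance of the members' median from that of all genes, -0.18, therefore could not change. The 34 lincRNA genes below 3 TPM that had enough counts had a median of -0.29, with 25 lower.

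Among members with miRNA genes only, 19 of 20 were lower in replicate 2, with a median log2 ratio of -0.60 and a range from -0.83 to 0.01, and all 20 were lower when scaled to library totals, which put 6070 of the 12719 genes lower. The exception, Gm20754, holds a predicted miRNA gene and was chosen after its value was seen. Of the 12 snoRNA or scaRNA hosts, 10 were lower, with a median of -0.19. Of the 94 members with neither, 56 were lower, with a median of -0.06. With the kallisto tables the same 3 groups gave 19 of 20, 7 of 12 and 53 of 94 lower, beside 4027 of the 12719 genes.

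The ranges of the host types overlapped. Among the 10 highest members with miRNA genes only, Gm26871 had a log2 ratio of -0.83, A330023F24Rik and Gm27000 -0.67 each, Gm3764 -0.66, Mir124a-1hg -0.65, 3110039I08Rik -0.45, Mir9-3hg -0.32, Gm6145 -0.29, Cdr1os -0.16 and C130071C03Rik -0.15. Among the 10 highest snoRNA or scaRNA hosts with enough counts, Gm26945 had -0.38, Snhg1 -0.30, Snhg20 -0.22, 1110038B12Rik -0.21, Gas5 and Snhg12 -0.18 each, AC121821.1 -0.17, Snhg8 -0.07, Snhg5 0.04 and Snhg6 0.14. Snhg17, at a lower level, was the lowest of the measured snoRNA hosts at -0.61. Without the miRNA hosts, an alternative chosen after seeing the data, the median over the members was -0.07.

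Length and splicing of the gene moved with the same ratio. The miRNA hosts spanned a median of 57.7 kb, the snoRNA or scaRNA hosts 2.37 kb and the members with neither 11.8 kb. Across the 126 members, Spearman's rho of the ratio was -0.38 with the largest number of exons and -0.29 with the span, as descriptions of genes measured in the same 2 libraries. Of the members with an annotated intron, 75 of 104 were lower in replicate 2, against 10 of 22 without one. Of the 9 excluded long non-coding RNAs that met the level rule, 8 were also lower, with a median of -0.50. The part of these features in the ratios was not tested.

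**Figure D3:**
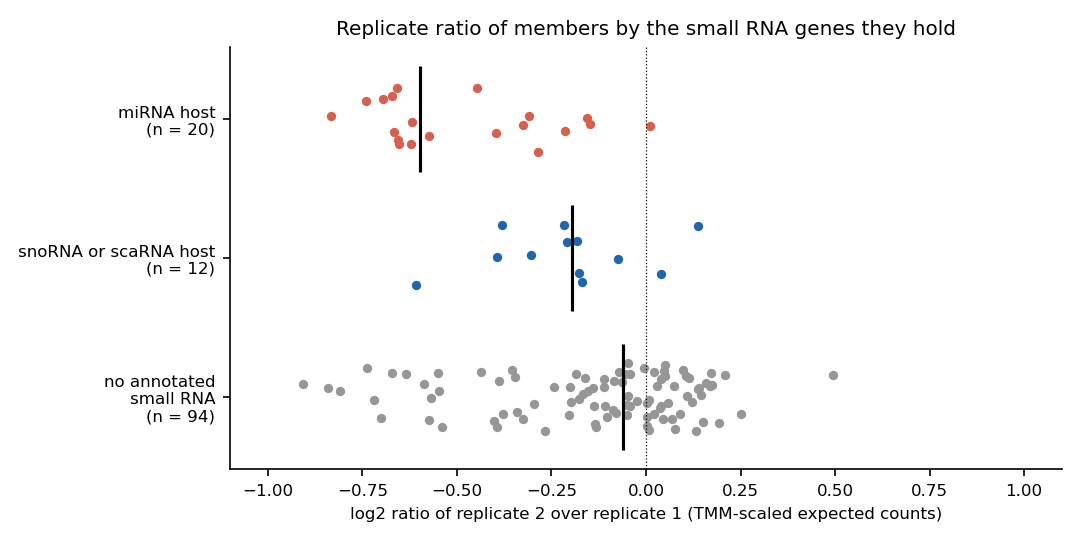
Log2 ratio of replicate 2 over replicate 1 on TMM-scaled expected counts for the 126 members that averaged at least 100 expected counts, each point 1 gene and each black bar a median. The miRNA hosts have a median of -0.60, the snoRNA or scaRNA hosts -0.19 and members with neither -0.06.

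At the ends of the range, Gm9916 had 4.02 TPM for replicate 2 and 7.78 TPM for replicate 1, with a count ratio of -0.91 (log2). Gm9916 lies inside the span of Gm26871, the miR-137 host, on the same strand. Gm44257, which starts next to the neuronal gene Cacng8, had 3.34 and 6.17 TPM in the same order and a ratio of -0.84, and Gm26871 had -0.83, B830012L14Rik -0.81 and Mir99ahg -0.74. The highest ratios were smaller. Gm10076, which RefSeq lists as a pseudogene and which shares 383 bases at 99.5% identity with the ribosomal protein gene Rpl41, had 21.3 TPM for replicate 2 and 15.6 TPM for replicate 1, with a ratio of 0.49. Gm45495 followed with 0.25, AC102496.1 with 0.21, B230217O12Rik with 0.19 and 4632415L05Rik with 0.17.

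Many members lay beside coding genes or overlapped them. A start within 1 kb of a coding gene's start on the opposite strand, called head to head here, was found for 30 members (18.6%), against 5.50% of the lincRNA genes below the minimum. Overlap with the partner was allowed, and Gas5, Gm10419 and M5C1000I18Rik are among the members that overlap theirs. The members of these pairs had a median of 4.71 TPM and their coding partners 31.5 TPM, and the partner was higher in 26 of 30. For comparison, the median was 7.06 TPM over all members and 18.7 TPM over coding genes with at least 3 TPM. Across the 30 pairs, Spearman's rho of both levels was -0.05. Pairs included Snhg1 with Slc3a2, an amino acid transporter subunit, at 11.3 and 67.8 TPM. 4930570G19Rik and Negr1, a neuronal cell adhesion gene, had 9.28 and 58.6 TPM with starts 48 bases apart.

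The exceptions, chosen after their values were seen, were Gas5, at 93.9 TPM against 7.71 TPM for Zbtb37, Gm10419, at 41.7 TPM against 26.2 TPM for Gm42517, AI480526, at 29.6 TPM against 14.8 TPM for Setd1b, and M5C1000I18Rik, at 15.7 TPM against 4.23 TPM for C2cd4b. In these 4 pairs the non-coding gene was the higher one. In the 19 pairs with a mean of at least 100 expected counts for both genes, the ratio between the replicates had a median of -0.06 (log2) for the members and 0.02 for their partners. The largest gap in level was for Gm44257, at 4.76 TPM against 182 TPM for Cacng8, a subunit of glutamate receptors.

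**Figure D4:**
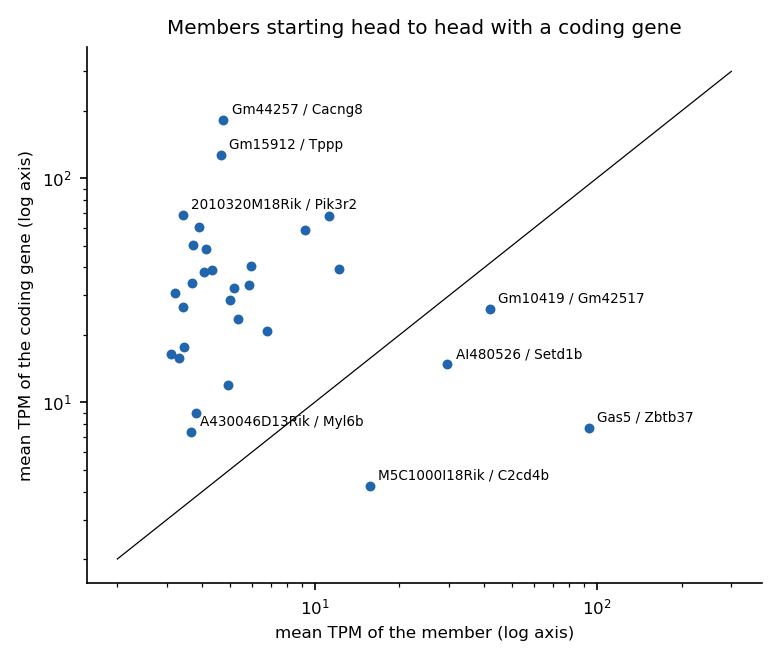
Mean TPM of the 30 members that start within 1 kb of a coding gene on the opposite strand, on the x axis, and of that coding gene, on the y axis, both on log axes with the line of equal level. In 26 pairs the coding gene lies above the line.

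Another arrangement was that of 19 members that began within 5 kb after the end of a coding gene on the same strand. In 16 of the 19 the coding gene was the higher one. The median was 6.57 TPM for the members and 16.3 TPM for the genes before them. These lay near the medians of 7.06 TPM for all members and 18.7 TPM for coding genes with at least 3 TPM. Despite the biotype, 9 members (5.59%) overlap a coding gene on the same strand, against 1.85% of the lincRNA genes below the minimum. Reads of these 9 may not be told apart from unspliced RNA of the coding gene, which was not tested.

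Promoters of RefSeq (250 bases before to 50 bases after a start, GRCm38) lay within 100 bases of a transcript start for 87 members. Of these, 45 (51.7%) were rich in CpG, with at least 50% GC and an observed over expected CpG ratio of at least 0.6. The share was 9.92% for the 1542 matched lincRNA genes below the minimum, 34.1% over the first promoter of all 27025 genes in the table, and 72.9% for the 8594 matched coding genes with at least 3 TPM. The members' share thus lay above that of the other lincRNA genes and below that of coding genes at the same minimum. All 17 matched head-to-head members were CpG-rich, against 28 of 70 other members. Of the 12 matched snoRNA or scaRNA hosts, 10 were.

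At the 3′ ends, the hexamers AATAAA or ATTAAA, known as polyadenylation signals, occurred on the transcript strand in the last 50 bases of 102 of the 161 leading transcripts (63.4%). They occurred in 38.8% of the 8442 lincRNA transcripts of genes below the minimum, a set that was not limited to leading transcripts. No intron was annotated for 25 members (15.5%), against 4.96% of the lincRNA genes below the minimum. The members without an intron had a median of 10.8 TPM, and those with one 6.80 TPM.

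Several transcripts were annotated for 115 members, and 76 of these had a dominant model holding 50% or more of their TPM. The kallisto table named the same leading model for 79 of the 115, but another one for Gm3764 and Lncpint. Norad, Cdr1os and Cyrano were dominated by 1 model, with leading shares of 91.8%, 88.0% and 80.1% in replicate 2 and 90.8%, 88.5% and 81.0% in replicate 1. Hosts of many models were split. The leading transcript of 3110039I08Rik, 1 of 48, took 18.2% in replicate 2 and 21.1% in replicate 1. That of Gm3764 took 22.8% in replicate 2 and 22.7% in replicate 1, and that of Lncpint 20.4% and 14.8% in the same order.

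The share on transcripts of the lincRNA biotype itself had a median of 100% over these 115 members, and it was under 50% in 11. The leading transcript was of another biotype in 10, a retained intron in 8 of them, among them Gm43305 and A330023F24Rik. The replicates gave unlike shares for M5C1000I18Rik, chosen after its values were seen. Its model M5C1000I18Rik-201 took 88.3% in replicate 2 but 0.188% in replicate 1.

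A kallisto table for the same libraries gave a second estimate. Its TPM were higher for 151 of the 161 members, with a median log2 ratio of kallisto over RSEM of 0.70. The median over all 12179 genes with at least 3 TPM in RSEM was 0.64. Over 2-fold higher in kallisto were 33 members (20.5%), against 10.9% of those genes. Over 2-fold lower were 5 members (3.11%), against 3.45%. The 38 members over 2-fold apart became 19 on expected counts in place of TPM and, in an alternative chosen after seeing the data, 15 after centring on the median of all genes.

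Short genes and copies stood at the low end. Bc1, Gm10076 and Gm49207, models of 168, 383 and 279 bases, were listed at 0 in kallisto in both replicates, against mean RSEM levels of 225, 18.4 and 13.3 TPM. Gm34418 had 0.770 TPM in kallisto and 3.47 TPM in RSEM, and Gm5914 had 2.09 and 5.03 TPM. Gm49207 shares 268 bases at 99.6% identity with Ahsa1, a cochaperone gene. The kallisto level of Gm34418 was 0 in replicate 1.

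At the high end, AC121821.1 had 229 TPM in kallisto and 8.47 TPM in RSEM. This host of Snora74a thus ranked far apart in the tables, and Snora74a, listed at 0 in kallisto, had 583 TPM in replicate 2 and 511 TPM in replicate 1 in RSEM. Gm43305 had 182 TPM in kallisto and 20.9 TPM in RSEM, Snhg20 89.2 and 18.2 TPM, Gm27000 154 and 32.8 TPM, and Gm8066, which overlaps Epo on the opposite strand, 26.4 and 5.88 TPM. For these members the level differed between the tables by more than the spread between replicates.

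**Figure D5:**
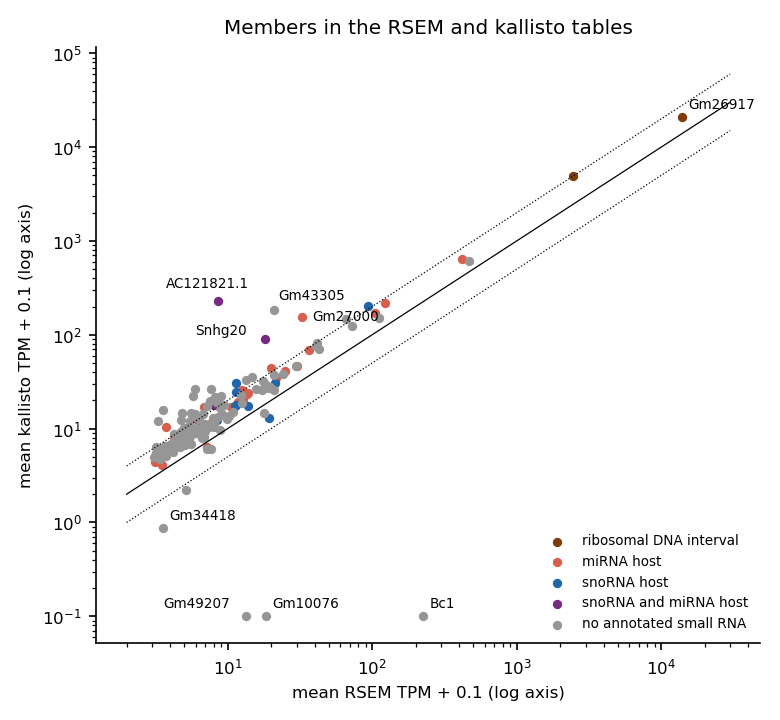
Mean kallisto TPM against mean RSEM TPM of the 161 members, both with 0.1 added and on log axes, with the line of equality and dotted lines at 2-fold. Bc1, Gm10076 and Gm49207 lie at 0 in kallisto, while AC121821.1 has 229 TPM in kallisto and 8.47 TPM in RSEM.

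The RSEM posterior SD of the count, a measure of doubt from reads that match several genes, was 0 for 124 members and above 1% of the count for 12. It was largest for Gm49207 at 19.4% of the count, Gm27000 at 9.88%, Gm10076 at 8.87%, AC158975.2 at 5.24% and Gm49749 at 3.99%. In any of their annotated transcripts, 34 members shared at least 100 bases at 95% identity or more with a coding gene elsewhere. For 5 of them the identity was 99% or more. Among these 5 was 1500004A13Rik, with 283 bases at 99.6% identity to Syt11, a synaptotagmin gene. RefSeq entries were found for 118 of the 161 members, and RefSeq lists 106 as lncRNA, 8 as protein-coding and 4 as pseudogenes.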

How the data were processed

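Total RNA libraries of 2 replicates of 1 group were described, with no test between groups. Text notes that came with the deposited samples name mm10 and GENCODE M21. The aligner and its version were not given in the sources used here. Per the file headers, the authors deposited expected counts and TPM per gene and transcript with the columns of RSEM, and estimated counts and TPM per transcript with those of kallisto, with a set of tables for each library. The deposited posterior SD of the count, in counts, was divided by the count. TPM divide counts by an effective length, so short transcripts gain TPM relative to their counts. Whether counting used the strand is not stated.

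The members and all lists were chosen with earlier results of these data known. Members were found by transcript biotype and mean RSEM TPM, and kallisto transcripts were summed per gene. Ratios used expected counts rounded to whole numbers, TMM factors of edgeR 4.0.16 (R 4.3.3) and a prior count of 0.5. The ratio step was tested on simulated data. Named members were the 20 highest, those on the role list, the 10 highest small RNA hosts, the 5 at each end of the replicate ratio and of the difference between the tables, the 5 on each side of the minimum, and the 5 with the largest posterior SD. Other genes named with values were chosen after their values were seen. Copies were sought with blastn 2.17.0. Positions and hosts came from the annotation and sequences from it and RefSeq. Alternatives included DESeq2 1.42.0 size factors, spike-ins and kallisto. Python 3.11.15 with pandas 2.3.3 and matplotlib 3.10.9 did the rest.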

Additional observations from a re-analysis of the deposited data

How the results depend on the processing

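Of the 8 summaries, the counts with a leading transcript and the median lincRNA-biotype share moved little under every alternative run. The number of members was 161, against 356 with the kallisto table and 258 with TPM rescaled over nuclear genes without small structural RNAs, and ranged from 152 to 170 with 1 replicate left out. The median level, 2.84 as log2(TPM + 0.1), became 3.01 with a pseudocount of 1, 3.57 with kallisto and 3.29 as a mean, and ranged from 2.77 to 2.97 with 1 replicate. The share of expected counts, 3.33%, became 4.19% with kallisto and, in an alternative chosen after seeing the data, 0.497% without Gm26917 and Gm42418. With 1 replicate it ranged from 3.25% to 3.41%.

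The members' median ratio of -0.14 became -0.34 when scaled to spike-ins, which moved the median of all genes from 0.04 to -0.17. The distance between these medians, -0.18, could not change, because a change of scaling shifts every gene nearly alike. The count over 2-fold apart, 0, became 4 with spike-ins, 2 with a count minimum of 10 and 20 with a 1.5-fold threshold. Matching shares of all genes were not counted under these settings, so the counts do not show whether members differ from other genes there. The 38 members over 2-fold apart between the tables became 19 on counts and, chosen after seeing the data, 15 after centring on all genes, and ranged from 36 to 40 with 1 replicate. The cause was not tested. With 1 replicate, the number of leading transcripts at 50% ranged from 76 to 79 and the lincRNA-biotype share stayed at 100%. That number was 69 with the kallisto table and 88 on expected counts. Ratios cannot be formed with 1 replicate left out. No paired analysis was possible because there is 1 group. The number of libraries, 2, limits every SD, and 35 members had too few counts for a ratio.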
